A study of Homo sapiens with 6 samples.

Results

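Genes of monocyte effector function and of the phagocyte NADPH oxidase were followed in Kasumi-1 cells: LYZ, S100A8, S100A9, FCN1, CD68, CYBA, CYBB, NCF1 and NCF4. They were the 9 rows, of 32364 genes in the deposited expression table, whose identifiers carry these names in GENCODE release 29. LYZ was chosen by its own values in these libraries, which were lower with I13, so they are given below as a description and without a p-value. Kasumi-1 is an established human acute myeloid leukemia line that carries the t(8;21) translocation. Cells were incubated for 48 h with 0.5 µM I13, an inhibitor of histone deacetylases, or with control, and the methods give DMSO at the concentration of the I13 solution as control. Each group has 3 mRNA sequencing libraries, named here control 1 to 3 and I13 1 to 3. All 6 come from a single cell line, and the labels do not say whether the 3 libraries of a group are separate cultures, so the p-values below measure the spread between these libraries.

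Lysozyme, the product of LYZ, cleaves the peptidoglycan of bacterial walls and is one of the main secreted proteins of monocytes. S100A8 and S100A9 are calcium-binding proteins that form calprotectin, which binds zinc and manganese. FCN1 (M-ficolin) is a lectin that binds sugars on microbes, and CD68 is a glycoprotein of the endosomes and lysosomes of macrophages. The phagocyte NADPH oxidase makes superoxide: CYBB (gp91phox) and CYBA (p22phox) form the membrane flavocytochrome, and cytosolic subunits, among them NCF1 (p47phox) and NCF4 (p40phox), join it with a Rac GTPase when the cell is activated.

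The sequences before 3 of these genes are shown: CYBA and CYBB because their products form one membrane protein while their transcripts lay far apart in level, and S100A9 as the effector gene that was tested and has an entry. The sequences are from RefSeq on GRCh38.p14, read 5′ to 3′ along the gene, and stop where either RefSeq or GENCODE begins the gene. CYBA is on the minus strand of chr16:88651153-88651303, CYBB on the plus strand of chrX:37779809-37780010 and S100A9 on the plus strand of chr1:153357604-153357853. Capitals mark letter matches, searched on both strands, to 5 motifs. The C/EBP motif was TTNNGNAA. The IRF motif was a pair of GAAA blocks with 2 bases between them. The motif of PU.1 and other ETS factors was GAGGAA. The RUNX motif was TGTGGT. The TATA motif was TATAAA.
CYBA: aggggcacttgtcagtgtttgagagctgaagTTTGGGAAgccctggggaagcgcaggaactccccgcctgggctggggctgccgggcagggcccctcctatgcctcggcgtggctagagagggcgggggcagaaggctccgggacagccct
CYBB: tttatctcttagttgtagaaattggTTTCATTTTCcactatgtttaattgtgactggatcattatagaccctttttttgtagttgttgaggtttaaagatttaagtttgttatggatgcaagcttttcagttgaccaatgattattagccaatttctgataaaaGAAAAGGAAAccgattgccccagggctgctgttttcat
S100A9: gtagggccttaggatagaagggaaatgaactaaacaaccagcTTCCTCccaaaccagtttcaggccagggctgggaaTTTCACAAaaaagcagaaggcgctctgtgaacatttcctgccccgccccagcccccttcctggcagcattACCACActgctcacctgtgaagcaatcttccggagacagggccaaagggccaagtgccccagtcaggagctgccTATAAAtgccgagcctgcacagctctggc
Over the 250 bases before the RefSeq start, CYBA had 73.6% G and C and 18 CG dinucleotides, whereas CYBB had 34.0% and 1. The median of 35116 RefSeq promoters of that length was 58.0% and 11 CG dinucleotides. CYBA held 1 C/EBP match and no other, a motif in 33.2% of all promoters. CYBB held 2 IRF matches, a motif in 3.02% of promoters, and 1 PU.1 match, a motif in 23.6%, which begins 48 bases before the RefSeq start and so lies beyond the printed stretch. S100A9 held 1 match each to the TATA motif (10.7% of promoters), the PU.1 motif, the RUNX motif (11% of promoters) and the C/EBP motif, and none of its matches overlapped another. A letter match is a description and not a binding site. Promoters matched 7 of the 9 genes.

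The libraries held between 15281052 and 17221345 fragments. Markers of the line were present in every library: RUNX1T1, the fusion partner of the translocation, lay between 12.5 and 14.4 FPKM (fragments counted on a gene, scaled to the length of its exons and to the depth of the library), KIT between 196 and 236, CD34 between 38.3 and 45.9 and MPO, myeloperoxidase, between 10240 and 12450. CD14, the defining antigen of monocytes, had 1 fragment in I13 3 and none elsewhere. Control 3 and I13 2 stood apart from the other 4 libraries on the first principal component, which held 43.29% of the variance over 4133 genes, while the second (20.54%) separated the groups. Values are therefore also given within the other 4 libraries and between those 2.

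The 9 genes ranged from undetected to among the highest of the table. CYBA was the highest, with a mean of 140.8 FPKM in control libraries, and ranked at percentile 98.9 of the genes tested. NCF4 followed at 25.7 FPKM (percentile 91.7), then LYZ at 4.99 (percentile 60.4), S100A9 at 0.818, and CYBB and NCF1 at 0.284 and 0.289. S100A8, CD68 and FCN1 lay below a mean of 0.1 FPKM, the minimum for the test between groups. Each of the 4 neighbouring pairs in the order CYBA, NCF4, LYZ, S100A9, CYBB was in that order in 6 of 6 libraries and without overlap, which is given as a description, since the order was taken from the same values. CYBB exceeded NCF1 in 4 of 6 libraries, and their ranges overlapped.

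**Figure D1:**
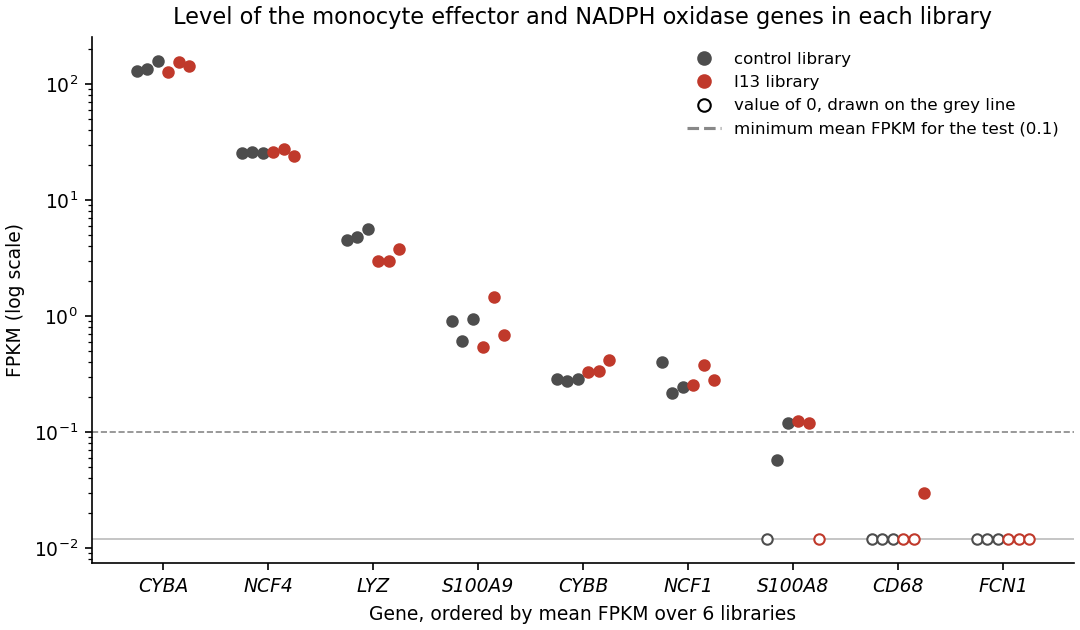
FPKM of each of the 9 genes in each library on a log scale, with control libraries in grey and I13 libraries in red, open symbols on the grey line for values of 0, and a dashed line at the minimum mean of 0.1 FPKM. CYBA sits above 100 FPKM in every library, CYBB and NCF1 lie between 0.219 and 0.414, and FCN1 is at 0 throughout.

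LYZ (chr12:69348341-69354234, plus strand, hg38) was lower in all I13 libraries. It measured 4.54, 4.79 and 5.65 FPKM in control 1 to 3, from 138, 145 and 165 fragments. In I13 1 to 3 it measured 2.99, 2.99 and 3.78 FPKM, from 84, 88 and 102 fragments. The highest I13 value, in I13 3, lay below the lowest control value, in control 1. The means were 4.99 ± 0.579 (SD, n = 3) and 3.26 ± 0.458, and the log2 fold change was -0.60 with a standard error of 0.13, on the scale of log2(FPKM + 0.1). It was -0.46 within the 4 libraries and -0.90 between control 3 and I13 2. Pooled over libraries, the ratio of I13 to control was 0.651, a description from the same libraries by which LYZ was chosen. In bulk RNA, fewer cells that express a gene and less RNA per cell cannot be told apart. Of the exon bases of LYZ, 34.0% also lie in AC020656.1 on the opposite strand. The library kit keeps strand, and whether the counting used it is not stated.

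S100A9 (chr1:153357854-153361027, plus strand) was detected at few fragments and its groups overlapped. Control 1 to 3 gave 0.906, 0.606 and 0.942 FPKM, from 9, 6 and 9 fragments. I13 1 to 3 gave 0.544, 1.45 and 0.680 FPKM, from 5, 14 and 6 fragments. I13 2 was the highest of all 6 libraries and I13 1 the lowest. The log2 fold change was 0.03 ± 0.36 (SE), with an interval from -0.81 to 0.86 (limma, adjusted p = 0.9996). It was -0.35 without I13 2, -0.15 without control 2 and -0.25 within the 4 libraries, so no direction can be given.

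The membrane subunits of the oxidase differed far in level, at a CYBA to CYBB ratio of 345.2 to 554.1 over the 6 libraries, and neither passed the test. CYBA (chr16:88643283-88651152, minus strand) measured 130.2, 133.5 and 158.8 FPKM in control 1 to 3. In I13 1 to 3 it measured 127.9, 154.9 and 143.0 FPKM, and the 2 libraries that stand apart, control 3 and I13 2, were its 2 highest. Its fold change was 0.01 on the log2 scale (SE 0.10, interval -0.22 to 0.24, limma adjusted p = 0.9996), from at least 6837 fragments in every library. The sign of this small value turned in some of the alternatives, given in the closing section.

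CYBB (chrX:37780011-37813461, plus strand) gave 0.289, 0.277 and 0.287 FPKM in control 1 to 3, from 22, 21 and 21 fragments. In I13 1 to 3 it gave 0.327, 0.339 and 0.414 FPKM, from 23, 25 and 28 fragments. Every I13 library lay above every control library, and the fragments of the closest, control 1 and I13 1, were 22 and 23. The control values had an SD of 0.00646 and the I13 values one of 0.0475. The log2 fold change was 0.26 ± 0.26 (SE) and its interval, from -0.36 to 0.87, holds 0 (limma adjusted p = 0.993). It was 0.29 within the 4 libraries and 0.18 between control 3 and I13 2. Its adjusted p was 0.828 or more across the limma alternatives, although without a variance trend its unadjusted p was under 0.05. The pooled fragments, 64 against 76, gave a ratio of 1.26 with a counting interval of 0.894 to 1.79.

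The ratio of CYBA to CYBB was 450.7, 482.5 and 554.1 in control 1 to 3 and 391.7, 457.2 and 345.2 in I13 1 to 3. The ratios overlapped, and their log2 difference of -0.32 did not pass (exact two-sided permutation test, p = 0.2, adjusted p = 0.4 over 2 ratios, where 0.1 is the smallest p that 3 libraries against 3 can give).

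Of the cytosolic subunits among the 9 genes, NCF4 lay between 24.2 and 27.7 FPKM in every library and NCF1 was barely detected. NCF4 (chr22:36860988-36878015, plus strand) measured 25.4, 26.1 and 25.6 FPKM in control 1 to 3 and 26.1, 27.7 and 24.2 in I13 1 to 3. The control libraries all lay inside the range of the I13 libraries. Its log2 fold change was 0.02 ± 0.06 (SE, limma adjusted p = 0.9996), and the interval of -0.13 to 0.16 leaves out the fold threshold of 0.58 either way.

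NCF1 (chr7:74773962-74789315, plus strand), the organizer that brings the cytosolic complex to the membrane, gave 0.402, 0.219 and 0.244 FPKM in control 1 to 3. In I13 1 to 3 it gave 0.254, 0.381 and 0.284 FPKM, and all of these values came from 13 to 24 fragments. Control 1 and I13 2 were the 2 highest and the groups overlapped. The log2 fold change was 0.08 ± 0.32 (SE, limma adjusted p = 0.9996), and it was -0.05 without control 2 or without I13 2 and -0.12 within the 4 libraries. NCF1 has 2 near-identical copies, NCF1B and NCF1C. Of the 100-base stretches of its main transcript, 64.5% also occur in one of them, so these counts are uncertain. NCF1C had 38 fragments in control and 35 in I13 libraries, and NCF1B 9 and 14. The ratio of NCF4 to NCF1 was 95.8 ± 29.3 (SD, n = 3) in control and 87.0 ± 15.1 in I13 libraries (exact two-sided permutation test, p = 0.7, adjusted p = 0.7).

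The remaining 3 genes were at or near the detection limit and were not tested. S100A8 (chr1:153390032-153391188, minus strand) had 0, 1 and 2 fragments in control 1 to 3 and 2, 2 and 0 in I13 1 to 3. Its pooled ratio was 1.42 with a counting interval of 0.24 to 9.68, so neither direction was detectable at this depth. CD68 (chr17:7579467-7582113, plus strand) had 1 fragment in I13 3 and none in the other 5 libraries. This low value is uncertain: 81.7% of the exon bases of CD68 also lie in AC016876.2 on the same strand, which itself had 0 to 1 fragments. EIF4A1, a translation initiation helicase that shares 41.1% of its exon bases with AC016876.2, was listed at only 0.415 to 0.702 FPKM. FCN1 (chr9:134905890-134917963, minus strand) had no fragment in any library, which allows up to 0.0118 FPKM in the control and 0.0126 FPKM in the I13 group at 3 fragments per group.

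Across all 18726 genes tested, limma called 0 (0.0%) at an adjusted p under 0.05 and a log2 fold change of at least 0.58 either way, and 963 (5.14%) had an unadjusted p under 0.05. Voom, run as an alternative on fragments recovered from the FPKM values, called 7 of 13853 genes by the same rule (0.0505%). Of the 5 genes of the set tested by limma other than LYZ, none was called, nor was any of the 4 that voom tested, S100A9 being below its minimum, and 0 of 5 had an unadjusted limma p under 0.05. Every I13 library lay above every control library for CYBB, as it did for 4.88% of all genes, and below for LYZ, as it did for 4.64%.

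**Figure D2:**
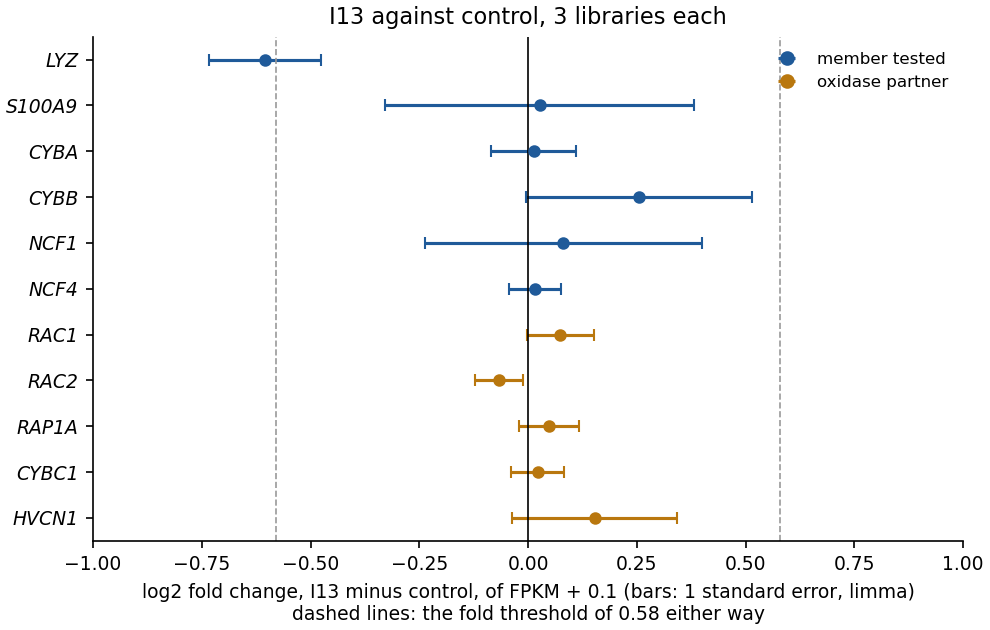
Log2 fold change, I13 minus control, of FPKM + 0.1 with 1 standard error from limma (3 libraries per group), for the genes of the set that were tested (blue) and 5 partners of the oxidase (orange). LYZ (-0.60) lies to the left of the dashed line at -0.58, and the others lie between -0.07 and 0.26.

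A list of 5 partners of the oxidase was then examined, and none passed in either direction. RAC2, the Rac GTPase of blood cells, had means of 95.5 ± 1.21 and 91.3 ± 5.66 FPKM, and RAC1 57.2 ± 4.38 and 60.2 ± 4.40. RAP1A, a small GTPase found with the flavocytochrome, had 14.8 ± 0.409 and 15.3 ± 1.19 FPKM. CYBC1, a chaperone of the flavocytochrome, had 13.9 ± 0.803 and 14.1 ± 0.351, and HVCN1, the proton channel that balances the charge moved by the oxidase, 1.62 ± 0.360 and 1.80 ± 0.266. Their log2 fold changes lay between -0.07 and 0.15. The median of the 5 partners was 0.05, against 0.01 for all genes tested.

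Of 8 kinases and exchange factors that activate the oxidase, 1 had an unadjusted p under 0.05 in the higher direction (2.55% of all genes did) and 0 in the lower. PRKCD, a protein kinase C that phosphorylates NCF1, measured 2.09, 2.20 and 2.42 FPKM in control and 2.90, 2.54 and 2.85 in I13 libraries (log2 fold change 0.30, limma adjusted p = 0.947). Its I13 libraries all lay above its control libraries, as for 4.88% of all genes. The log2 fold change was 0.41 within the 4 libraries and 0.07 between control 3 and I13 2. For VAV1, DOCK2, PIK3CG and PAK1 every I13 library lay below every control library, as for 4.64% of all genes, with log2 fold changes between -0.15 and -0.07 that did not pass. PAK2, the most abundant of the 8, had 49.0 ± 3.79 and 47.6 ± 1.27 FPKM. Of 10 genes of other NADPH oxidases, 6 were at 0 in every library, among them NOX4 and DUOX2, and NOXA1 alone was high enough to test, at 0.681 ± 0.190 and 0.806 ± 0.238 FPKM.

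**Figure D3:**
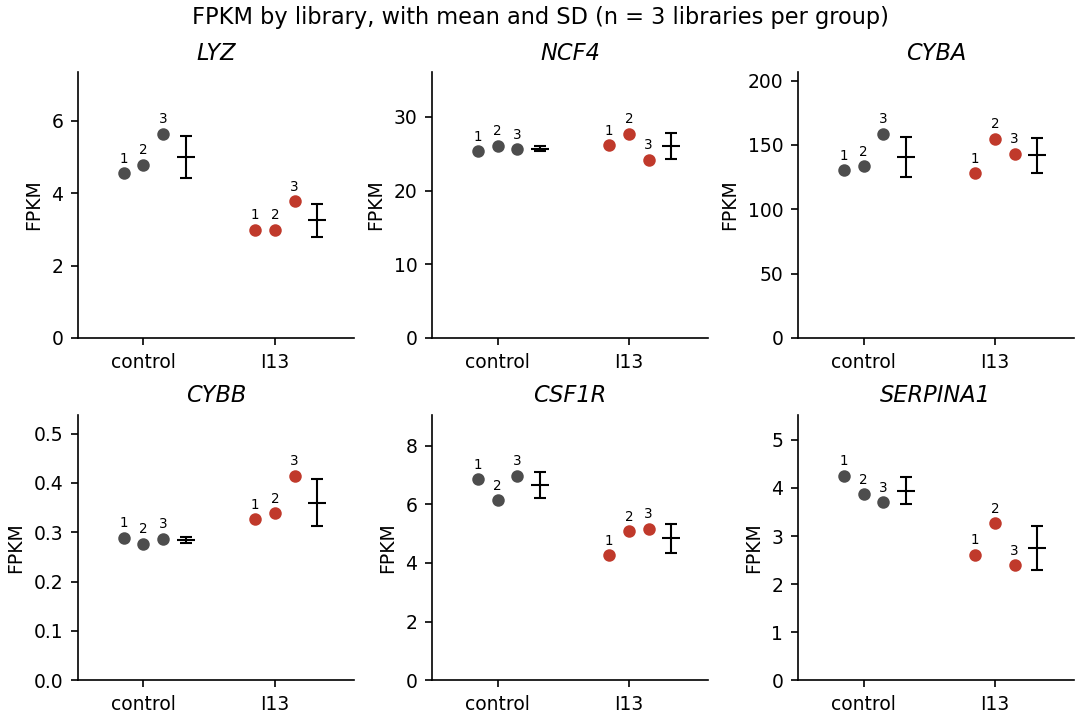
FPKM by library from 0 for LYZ, NCF4, CYBA, CYBB, CSF1R and SERPINA1, with the replicate number above each point and the mean and SD beside each group (n = 3). The groups are apart for LYZ, CSF1R and SERPINA1, where I13 is lower, and for CYBB, where I13 is higher, and they overlap for NCF4 and CYBA. Of all genes tested, 4.64% had every I13 library below every control library, and 4.88% had every I13 library above.

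A list of monocyte and macrophage markers was compared in the same way. Of 28 markers, 25 were in the table and 15 were tested; 4 had an unadjusted p under 0.05 in the lower direction, as 2.59% of all genes did, and 0 in the higher. The 4 were CSF1R, SERPINA1, FCER1G and CST3. Of these, only CSF1R was among the markers named in the design of the analysis. SERPINA1, FCER1G and CST3 came from the longer list of 28. None passed after adjustment by limma on all 6 libraries, or by voom, which tested 13 of the 15. In voom alternatives chosen after seeing the data, SERPINA1 passed the call rule without I13 2 (log2 fold change -0.65, adjusted p = 0.0143). With a term for control 3 and I13 2 the adjusted p was 0.00593 for CSF1R and 0.0338 for SERPINA1, and without I13 2 it was 0.0281 for CSF1R, each below the fold threshold. Over all voom settings it reached 0.718 for both, without I13 1. CSF1R, the receptor of macrophage colony-stimulating factor, measured 6.86, 6.13 and 6.97 FPKM in control and 4.27, 5.07 and 5.17 in I13 libraries. Its log2 fold change was -0.46 ± 0.10 (SE, limma adjusted p = 0.583, voom adjusted p = 0.0895). It was -0.46 within the 4 libraries and -0.45 between control 3 and I13 2.

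SERPINA1, alpha-1 antitrypsin, measured 4.25, 3.88 and 3.71 FPKM in control and 2.61, 3.27 and 2.39 in I13 libraries. Its I13 libraries all lay below its control libraries, as for 4.64% of all genes. The log2 fold change was -0.51 ± 0.13 (SE, limma adjusted p = 0.797), -0.68 within the 4 libraries and -0.18 between control 3 and I13 2. FCER1G, the shared signalling chain of Fc receptors, had 19 to 29 fragments in control and 13 to 15 in I13 libraries, at a log2 fold change of -0.64 (limma adjusted p = 0.859). By voom the unadjusted p of FCER1G was 0.0522 and the adjusted p 0.931. CST3, cystatin C, had means of 18.9 ± 1.19 and 16.5 ± 1.55 FPKM (limma adjusted p = 0.947).

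Over the 15 markers, 12 log2 fold changes were below 0 and 3 above, with a median of -0.13. Of all 18726 genes tested, 9024 were below 0, with a median of 0.01. Left out 1 library at a time, 3 to 4 of the 15 markers had an unadjusted p under 0.05 in the lower direction. The count was 3 with median scaling, with the replicate block, by limma without a trend and by voom, which tested 13. The summed level of the markers in the table was 82.95 to 84.08 FPKM in control and 74.06 to 78.36 in I13 libraries. This sum weighs abundant genes most, and CST3, TLR2 and AIF1, the highest of them, were not named in the design. Of the markers that the design named, CSF1R, FCGR1A and MNDA were tested. Their log2 fold changes were -0.455, -0.151 and -0.054. FCGR3A, CD163 and CD300E were at 0 in every library, while TLR2 (16.8 ± 0.776 and 16.2 ± 2.02 FPKM) and MNDA (6.02 ± 0.602 and 5.78 ± 0.435 FPKM), a nuclear antigen of myeloid cells, were present in both groups and did not pass. AIF1, an actin-binding protein of macrophages, had 12.1 ± 0.763 and 10.99 ± 0.229 FPKM, with all I13 libraries lower, as for 4.64% of all genes. CTSS, cathepsin S, had 7.42 ± 0.432 and 8.24 ± 1.02 FPKM, and neither passed.

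**Figure D4:**
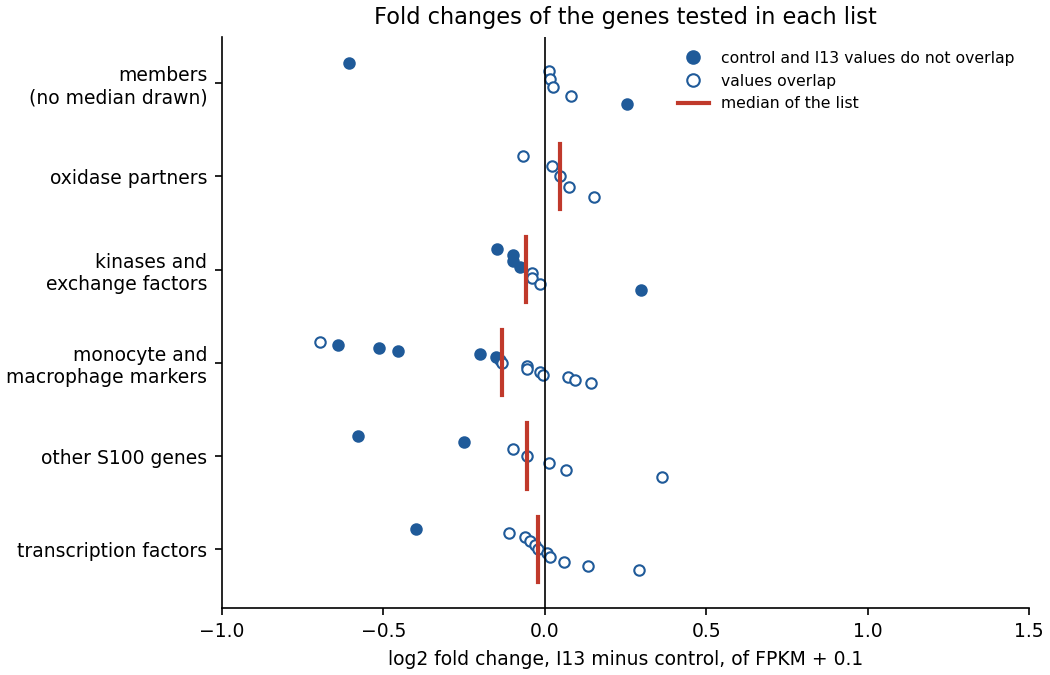
Log2 fold change, I13 minus control, of FPKM + 0.1 for each gene tested in 6 lists, with filled points where the 3 control and 3 I13 values do not overlap and a red line at the median of each list other than the first. In the list of monocyte and macrophage markers 6 points are filled, all below 0. SERPINA1, FCER1G, CST3 and AIF1, among these, were not named in the design. Of all genes tested, 4.64% had every I13 library below every control library. The median of the marker list is -0.13, against 0.01 for all genes tested.

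None of 11 transcription factors known at the promoters of the oxidase and lysozyme genes passed in either direction, and their median log2 fold change was -0.02. SPI1, which encodes PU.1, had 113.8 ± 7.78 and 105.4 ± 6.02 FPKM, CEBPE 34.8 ± 1.33 and 33.4 ± 2.95, RUNX1 33.8 ± 1.55 and 34.2 ± 1.71, and ELF1 23.6 ± 1.54 and 24.6 ± 2.26. For IRF8, a factor of monocyte development, every I13 library lay below every control library, as for 4.64% of all genes. It measured 1.09, 1.21 and 1.62 FPKM in control and 0.876, 0.917 and 1.08 in I13 libraries. The log2 fold change was -0.40 ± 0.19 (SE, limma adjusted p = 0.954), -0.22 within the 4 libraries and -0.76 between control 3 and I13 2. By voom the unadjusted p of IRF8 was 0.0268 and the adjusted p 0.787.

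Over all lists around the 9 genes, 52 genes were tested, of which 7 had an unadjusted p under 0.05 in the lower direction, as 2.59% of all genes did, and 3 in the higher, as 2.55% did. Without 1 library at a time the lower count ran from 4, without control 1 or control 2, to 10, without I13 2. The higher count was 1 without control 1, I13 1 or I13 3 and at most 3 otherwise.

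Markers of other cell types were low apart from EPCAM, an epithelial adhesion molecule. CD3D, a T cell gene, had 5, 6 and 5 fragments in control libraries and 2 in each I13 library (limma adjusted p = 0.890), and the 4 T and NK cell markers summed to 0.948 to 1.51 FPKM in control and 0.448 to 0.887 in I13 libraries. Erythroid markers summed to at most 0.201 FPKM, megakaryocyte markers to at most 0.613, markers of eosinophils, basophils and mast cells to at most 0.311, and B cell markers to at most 2.60. Of the stromal and epithelial markers, COL1A1 and COL1A2 were at 0 and EPCAM lay between 20.8 and 26.5 FPKM in both groups (limma adjusted p = 0.9996). Whether the T and NK cell values have a part in the results above was not tested.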

How the data were processed

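Libraries were made by the authors from total RNA with a kit for stranded mRNA. The submitters' processing notes name Trimmomatic, HISAT2, Cufflinks, HTSeq and build hg38, while versions and the strand setting of the count are not stated. The deposited table holds FPKM values per gene and library, as computed by the authors. They were used without further scaling. Of 32364 genes, 5269 were at 0 throughout, and GENCODE 29 named 32244. With its exon lengths, FPKM values gave whole fragments within 0.01 for 25773 of 27002 genes above 0 with a length (95.4%), and 1322 more came from a common step.

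Groups were compared with limma 3.58.1 in R 4.3.3, with a variance trend, on log2(FPKM + 0.1) for 18726 genes with a mean of at least 0.1 FPKM, with Benjamini-Hochberg adjustment over all of them. The call rule was an adjusted p under 0.05 and a log2 fold change of at least 0.58 either way. Voom on recovered fragments (mean of at least 10), other pseudocounts, filters, scalings and left-out libraries were alternatives. On simulated data with 200 genes changed by 2-fold, limma called 137 of them and 23 unchanged genes among 18154, and voom 180 and 5 among 13743. Intervals of log2 fold changes are from limma at 95% and measure the spread between libraries, while intervals of pooled fragment ratios (95%) and floors (3 fragments) cover counting error only. Exact tests used scipy 1.17.1 and were two-sided. Genes named were the members, list genes with an unadjusted limma p under 0.05, up to 4 genes of each list with the highest mean, and the 5 genes closest to LYZ among those with a mean of at least 1 FPKM. Others named (HVCN1, IRF8, MNDA, FCGR1A, PIK3CG, EIF4A1 and genes at or near 0) fell outside these rules and were chosen after their values were seen. The members and lists were chosen with earlier results of these data known. From the oxidase list, 1 gene is not reported here.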

Additional observations from a re-analysis of the deposited data

How the results depend on the processing

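LYZ and CYBB kept their direction under every alternative tried. Their groups did not overlap, so leaving out libraries could not turn the sign, and LYZ was chosen for its fall. Called genes at the adjusted p numbered 9 by limma without a trend and 7 by voom, against 0. Genes higher at the unadjusted p with the fold threshold numbered 220, and 72 with a pseudocount of 1, 59 at a mean of at least 1 FPKM and 116 by voom. Genes lower numbered 225, and 62, 60 and 99 under the same 3 settings and 147 with the fold threshold at 1. Members other than LYZ with an unadjusted p under 0.05 numbered 1, CYBB, by limma without a trend, against 0. List genes ranged from 4 to 10 lower and from 1 to 3 higher without 1 library, and 1 was higher by voom. Without 1 library at a time, log2 fold changes ranged from -0.351 to 0.285 for S100A9 (against 0.027), from -0.053 to 0.102 for CYBA (against 0.013), from -0.047 to 0.282 for NCF1 (against 0.081) and from -0.031 to 0.067 for NCF4 (against 0.016). They were below 0 without control 2 or I13 2 for S100A9 and NCF1, without control 1, control 2 or I13 2 for CYBA and without I13 2 for NCF4. Within the 4 libraries they were -0.249 for S100A9, -0.119 for NCF1 and -0.033 for NCF4. CYBA was at -0.014 with quantile normalization and at -0.036 between control 3 and I13 2. Over the voom settings, log2 fold changes ranged from -0.052 to 0.103 for CYBA, from -0.053 to 0.381 for NCF1 and from -0.031 to 0.068 for NCF4. The log2 difference of the NCF4 to NCF1 ratio was 0.083 without control 2 and 0.020 without I13 2, against -0.101. The cause of these changes was not tested. Voom without 1 library, voom with a block or a further term, and ratios without 1 library were chosen after seeing the data. Scalings moved the median of all genes to at most 0.01.

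With the replicate number as a block, limma called 0 genes and 243 were lower and 263 higher at the unadjusted p with the fold threshold, and 5 list genes were lower and 2 higher. Deviations of same-numbered libraries correlated at 0.32, -0.38 and -0.30 over 4133 genes, and those of control 3 and I13 2 at 0.51. The separation of these 2 libraries enters every one of these values, so they cannot tell whether the libraries were paired. Fewer than 30 fragments per library limit S100A9, CYBB and NCF1, and S100A8, CD68 and FCN1 could not be compared.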

Other observations

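Among 15 other S100 genes, 7 were tested, of which 2 had an unadjusted p under 0.05 in the lower direction, as 2.59% of all genes did, and 0 in the higher. The lower count was 1 without control 1 or control 2 and 3 without I13 2. S100A4, a calcium-binding protein of motile cells, measured 33.1, 32.1 and 33.7 FPKM in control and 28.3, 28.3 and 26.6 in I13 libraries. Its I13 libraries all lay below its control libraries, as for 4.64% of all genes. Its log2 fold change was -0.25 ± 0.05 (SE, limma adjusted p = 0.523), and it was -0.25 both within the 4 libraries and between control 3 and I13 2. S100Z had 4.01 ± 0.612 and 2.67 ± 0.536 FPKM (SD, n = 3), with an adjusted limma p of 0.875. S100A11, the most abundant of the family at 73.3 ± 0.827 and 68.7 ± 6.85 FPKM, did not pass.

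A list of neutrophil granule genes, which left out MPO, had 8 genes in the table and 3 high enough to test. Of these 8, LTF, CAMP, MMP9 and CEACAM8 were at 0 in every library. MPO, itself a granule gene, lay between 10240 and 12450 FPKM. Of the 3 listed genes tested, PGLYRP1 was higher and OLFM4 lower at an unadjusted limma p under 0.05. Of all genes, 2.55% were higher and 2.59% lower at that threshold. LYG2, 1 of 2 lysozyme and ficolin relatives tested, was also higher at it. PGLYRP1, a protein that binds peptidoglycan, had 5, 5 and 7 fragments in control and 9, 17 and 10 in I13 libraries (log2 fold change 0.98, limma adjusted p = 0.847). OLFM4, a glycoprotein of specific granules, had 29, 17 and 14 fragments in control and 6, 11 and 7 in I13 libraries (log2 fold change -0.87, limma adjusted p = 0.947). BPI, which binds endotoxin, had 0.398 ± 0.0956 and 0.411 ± 0.0771 FPKM. LYG2, a goose-type lysozyme gene, had 1.31 ± 0.382 and 1.90 ± 0.266 FPKM with overlapping groups (limma adjusted p = 0.947), and its relative LYG1 3 to 17 fragments.

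The genes whose values over the 6 libraries lay closest to the pattern of LYZ, by the root mean square of the difference in centred log2 values among 11517 genes, were AL591845.1 (0.0965), PLPP3 (0.104), AC008764.6 (0.106), P2RY2 (0.126) and BMF (0.127). PLPP3, a lipid phosphate phosphatase, had 1.99 ± 0.273 and 1.26 ± 0.126 FPKM. P2RY2, a receptor for extracellular ATP and UTP, had 5.63 ± 0.130 and 4.11 ± 0.298, and BMF, a member of the BCL2 family that promotes cell death, 2.12 ± 0.161 and 1.49 ± 0.247. They were chosen for this likeness and are given without a test.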
